A study of Mus musculus with 11 samples.

Results

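The genes described here are those of sugar breakdown and of the response to low oxygen, measured in cultured mouse microglia under 4 conditions. The list holds 36 named genes: 3 transporters of glucose or lactate, 16 enzymes of glycolysis, 3 enzymes that set the pace of glycolysis or the fate of pyruvate, 4 genes of oxygen sensing and 10 genes known as targets of the hypoxia-inducible factors. A probe counted as detected on an array when the scanner software gave it a detection p below 0.01, and a gene was tested when a probe of it was detected on at least 2 arrays. By that rule 27 of the 36 genes were tested, among 8952 genes in all. Slc16a1, Pfkfb3, Bnip3 and Ero1a had probes that were detected on 0 arrays, and Ddit4 and Adm had probes detected on 1 array. For Hk2, Gpi1 and Eno1 no probe was named, so they are not analysed here.

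Glycolysis splits glucose into pyruvate in the cytosol and yields ATP without oxygen, and lactate dehydrogenase turns pyruvate into lactate that leaves the cell. The transcription factor HIF-1 raises the genes of this pathway when oxygen is scarce. Prolyl hydroxylases of the Egln family use oxygen to mark the HIF-1 alpha subunit for destruction, and several of them are HIF targets themselves. In macrophages, which are relatives of microglia, bacterial lipopolysaccharide (LPS) is known to raise HIF-1 alpha and glycolysis also where oxygen is plentiful.

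The cells were microglia, the brain's own macrophages, prepared from newborn C57BL/6J mice, and no genotype other than this strain is given. One group was given 100 U/ml of the cytokine IL-4 during 48 h (3 arrays), another 20 ng/ml of TGFb, the growth factor TGF-beta, during 48 h (3 arrays), and a further group 100 ng/ml of LPS together with 20 ng/ml of IFNg, interferon-gamma, during 16 h (2 arrays, replicates 1 and 3). Untreated cells had 3 arrays, and the labels give them no time, so the LPS/IFNg stimulus and its shorter time cannot be told apart. Slide 1 carried replicates 1 and 2 of IL-4 and TGFb and replicate 1 of LPS/IFNg, and slide 2 carried replicate 3 of the stimulated groups and the whole untreated group. Whether replicates are separate cultures or animals is not stated, so the p-values rest on the spread between arrays alone, which may be technical. In RNA from bulk cultures, fewer cells of a type and less RNA per cell cannot be told apart.

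Median signals were 120.1 to 127.3 per array, and 12427 to 14200 probes were detected on an array. Of 12 markers of microglia and macrophages 11 were tested, and all 11 were detected on each IL-4, TGFb and untreated array and 9 on each LPS/IFNg array. Their summed signal was 41100 to 41300 on LPS/IFNg arrays, against 69600 to 80600 with IL-4, 86100 to 110000 with TGFb and 74300 to 99400 in untreated cells. The markers did not all move down. By the test described below, 7 of the 11 were lower with LPS/IFNg than untreated and 1 higher, beside 23.5% and 17.5% of all genes. Aif1 had log2 signals of 12.47 and 12.74 with LPS/IFNg, against 11.54, 10.96 and 11.36 untreated. C1qb had 14.52 and 14.61, against 14.81, 14.36 and 14.74. One array, the first IL-4 replicate, stood apart: its summed signal of 4 tested fibroblast and mural cell markers, of 9 listed, was 3480, against at most 713 on any other array. On it the summed signal of 5 tested astrocyte markers was 2450, against at most 227 elsewhere. Most of it was Gja1, with a log2 signal of 11.15 against at most 6.08 elsewhere. Gfap (5.33), Slc1a2 (5.26) and Slc1a3 (5.15) were lower there than on at least 1 other array. Aldh1l1 was 5.93, against at most 5.75 elsewhere. Of 5 listed endothelial markers only Pecam1 was tested. It gave 724 there, but also 144 and 377 on the other IL-4 arrays and 219 and 152 with LPS/IFNg. With at most 91.1 in untreated cells and 46.1 with TGFb, it was not particular to this array. The part of these marker shifts in the results below was not tested.

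Values are log2 signals after background correction and quantile normalization, so that 1 unit is a doubling. A fold change is the mean of the first group minus that of the second on this scale, with its standard error. A change was called at an adjusted p below 0.05 in limma, a linear model fitted to all 11 arrays, with Benjamini-Hochberg adjustment over the 8952 genes. Only called changes are written as rises or falls.

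The promoters of the listed genes were searched for the core of the hypoxia-response element, the letters to which HIF binds, spelled ACGTG or GCGTG on either strand (CACGT or CACGC on the other). A CACGTG holds a match on both strands and counts as 2 matches, and matches may overlap. Windows ran from 250 bases before to 50 bases after each start given by RefSeq on GRCm38.p6. Of the 27 tested genes 25 had a window, and 24 of those 25 (96.0%) held the core in at least 1 window, against 5040 of 7341 tested genes of any kind (68.7%). Counted by window, the shares were 30 of 37 (81.1%) for the tested genes of the list, 62.6% for all tested genes and 43.8% for all windows in the table. These are descriptions: the list contains genes named as HIF targets, base composition was not compared, and a match is no proof of a site.

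The windows below belong to genes on which the results turn, and the capitals mark each match. Pfkp and Pgk1 rose with LPS/IFNg and hold 4 and 2 matches, and Tpi1 rose too and was the 1 tested gene of the list with a window and no match. Egln3, the member with the largest difference between stimuli, holds 1 match, and P4ha2 and Ankrd37, HIF targets that were far higher on 1 LPS/IFNg array than on the other, hold 4 each. The windows lie at chr13:6648722-6649021 (Pfkp, minus strand), chrX:106186850-106187149 (Pgk1, plus), chr6:124814109-124814408 (Tpi1, minus), chr12:54203825-54204124 (Egln3, minus), chr11:54100674-54100973 (P4ha2, plus) and chr8:45999801-46000100 (Ankrd37, minus).
Pfkp: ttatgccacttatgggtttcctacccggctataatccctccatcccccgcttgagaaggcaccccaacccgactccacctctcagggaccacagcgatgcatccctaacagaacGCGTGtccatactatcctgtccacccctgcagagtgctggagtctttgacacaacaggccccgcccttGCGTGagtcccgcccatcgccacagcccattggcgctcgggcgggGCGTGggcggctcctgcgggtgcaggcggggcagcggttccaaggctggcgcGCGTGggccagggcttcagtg
Pgk1: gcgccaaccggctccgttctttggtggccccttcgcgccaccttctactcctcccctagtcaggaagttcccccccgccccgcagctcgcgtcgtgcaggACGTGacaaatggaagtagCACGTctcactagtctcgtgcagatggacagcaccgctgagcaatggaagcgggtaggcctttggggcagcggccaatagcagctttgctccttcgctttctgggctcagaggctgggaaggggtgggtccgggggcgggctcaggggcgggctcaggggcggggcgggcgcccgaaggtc
Tpi1: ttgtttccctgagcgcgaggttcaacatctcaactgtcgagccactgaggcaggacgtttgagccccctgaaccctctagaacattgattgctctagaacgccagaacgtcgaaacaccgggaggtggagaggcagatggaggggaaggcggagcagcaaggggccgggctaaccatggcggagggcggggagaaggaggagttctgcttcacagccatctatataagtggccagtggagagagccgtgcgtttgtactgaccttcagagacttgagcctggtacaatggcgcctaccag
Egln3: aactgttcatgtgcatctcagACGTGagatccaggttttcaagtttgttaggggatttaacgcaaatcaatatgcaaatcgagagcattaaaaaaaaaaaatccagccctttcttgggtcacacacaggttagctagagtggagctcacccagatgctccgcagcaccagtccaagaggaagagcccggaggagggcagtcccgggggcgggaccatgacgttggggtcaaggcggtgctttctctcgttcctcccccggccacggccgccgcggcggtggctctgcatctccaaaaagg
P4ha2: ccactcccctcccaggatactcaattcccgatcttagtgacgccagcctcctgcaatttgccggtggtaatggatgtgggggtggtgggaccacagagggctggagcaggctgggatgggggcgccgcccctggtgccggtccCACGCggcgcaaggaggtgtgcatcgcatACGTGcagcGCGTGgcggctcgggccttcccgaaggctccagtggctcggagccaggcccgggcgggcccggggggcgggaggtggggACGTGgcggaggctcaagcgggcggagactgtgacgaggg
Ankrd37: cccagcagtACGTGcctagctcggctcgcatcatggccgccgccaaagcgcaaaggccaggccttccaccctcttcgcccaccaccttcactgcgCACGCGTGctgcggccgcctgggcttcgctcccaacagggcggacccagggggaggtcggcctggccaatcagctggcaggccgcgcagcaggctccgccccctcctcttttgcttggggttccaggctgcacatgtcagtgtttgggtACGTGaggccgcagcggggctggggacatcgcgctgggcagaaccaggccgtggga

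The first question was how each stimulus moved these genes relative to untreated cells. LPS/IFNg raised 12 of the 27 genes and lowered 2. IL-4 and TGFb moved none past the threshold. Of 13 tested enzymes of glycolysis 7 rose, of 2 transporters 1, of 4 genes of oxygen sensing 2 (Hif1a and Egln2) and of 6 HIF targets 2 (P4ha1 and Ndrg1). The falls were in Pfkfb4 and Bnip3l. The 27 genes had a median log2 fold change of 0.65 with LPS/IFNg, against -0.07 over all 8952 genes. Over all genes 41% were called in this comparison, 17.5% higher and 23.5% lower, so that 12 rises are 44.4% of the list beside a background of 17.5%. With slide as a block in the model 9 rose and 2 fell, with a median of 0.64, and on slide 2 alone the median of the list was 0.16. On slide 2 alone LPS/IFNg, IL-4 and TGFb have 1 array each, so the spread there is that of the 3 untreated arrays. With either LPS/IFNg replicate left out, the remaining array is likewise assumed to vary as the arrays of the other groups do. Of the 27 genes, 17 had LPS/IFNg arrays that did not overlap the untreated ones, 12 above and 5 below, beside 63.1% of all genes. With untreated replicate 1 left out, 9 genes of the list were called, beside 3223 of all 8952 genes.

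**Figure D1:**
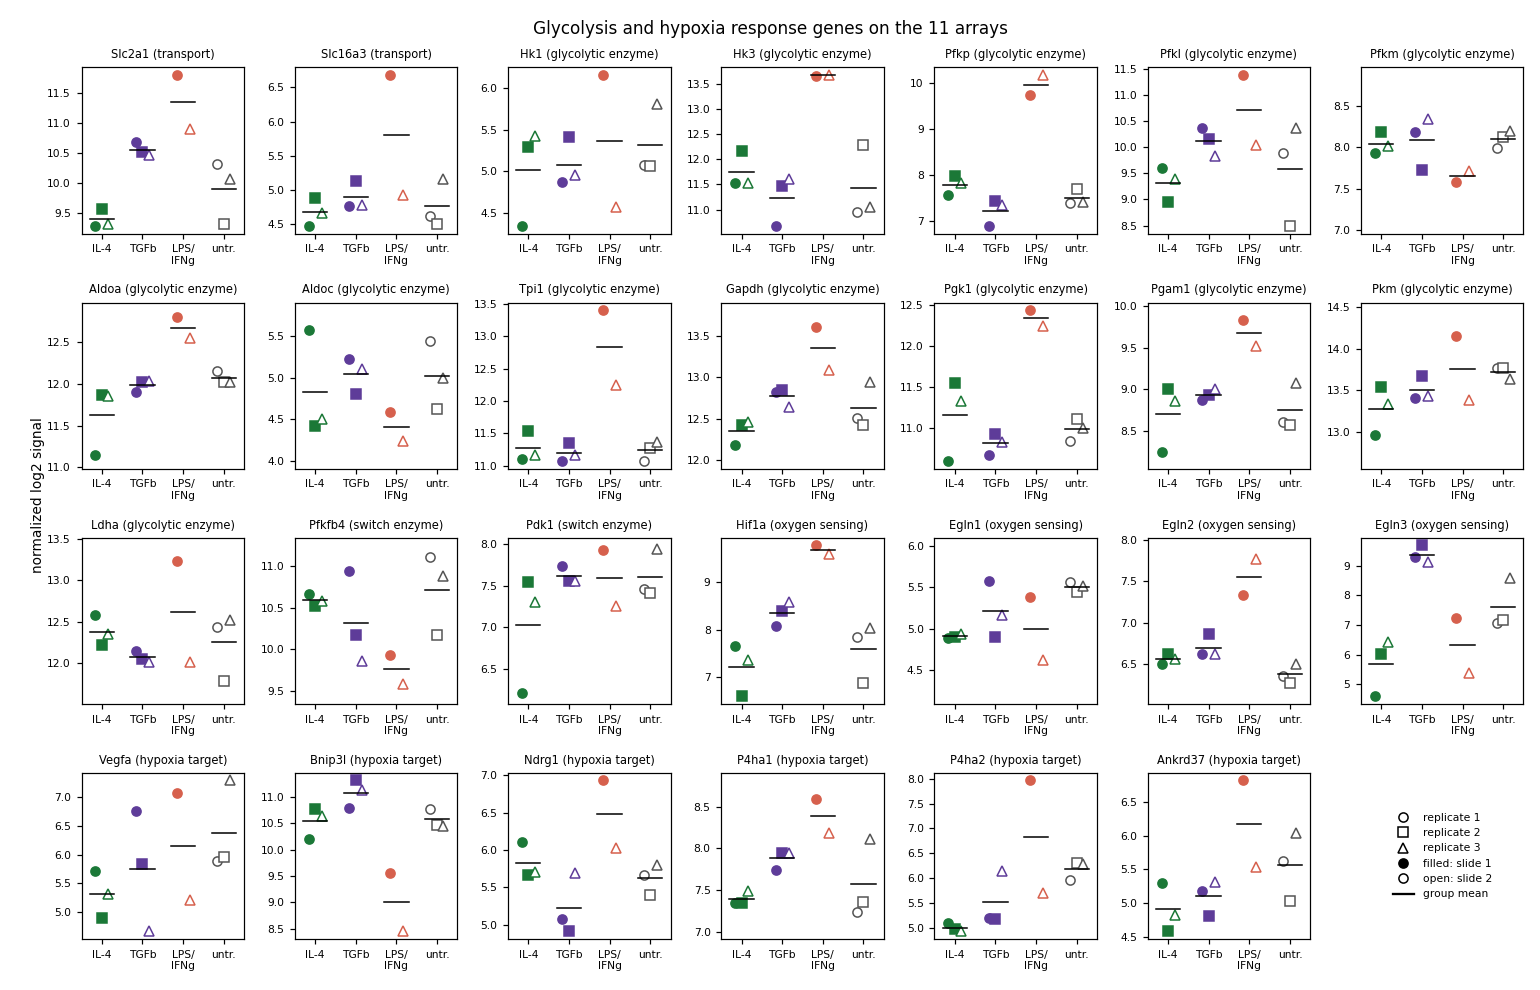
Normalized log2 signal (y axis, a separate scale in each panel) of the 27 tested genes on the 11 arrays, grouped as IL-4, TGFb, LPS/IFNg and untreated. Circles, squares and triangles are replicates 1, 2 and 3, filled symbols slide 1, open symbols slide 2, and bars group means. Both LPS/IFNg arrays lie above the other 9 for Hk3, Pfkp, Tpi1, Pgk1, Hif1a and Egln2. By smaller margins they also do so for Slc2a1, Aldoa, Gapdh, Pgam1 and P4ha1. They lie below the other 9 for Bnip3l and, narrowly, for Pfkm.

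Slc2a1 encodes GLUT1, the glucose transporter of most tissues. Its log2 signal was 11.80 and 10.91 on the LPS/IFNg arrays, 9.29, 9.58 and 9.33 with IL-4, 10.68, 10.52 and 10.47 with TGFb and 10.32, 9.33 and 10.08 in untreated cells. Both LPS/IFNg arrays were above all others, and the TGFb arrays were above the untreated ones. The rise with LPS/IFNg was 1.45 ± 0.31 (2.72-fold, adjusted p = 0.00366 in limma), and the adjusted p lay between 0.00253 and 0.139 over 23 alternatives. It was not called on slide 2 alone, where the difference was 1.00, nor without LPS/IFNg replicate 1. Slc16a3, the lactate exporter MCT4, was near background, with 6.68 and 4.92 on the LPS/IFNg arrays, of which 1 detected it, and 4.62, 4.50 and 5.16 in untreated cells, and its difference of 1.03 was not called (adjusted p = 0.0684).

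Pfkp encodes the platelet form of phosphofructokinase, the enzyme that commits sugar to glycolysis, and was the strongest riser of the list. Its probe gave 9.74 and 10.18 on the LPS/IFNg arrays, 7.57, 7.99 and 7.82 with IL-4, 6.89, 7.44 and 7.36 with TGFb and 7.40, 7.70 and 7.41 in untreated cells. The groups did not overlap. The difference was 2.46 ± 0.22 (5.49-fold, adjusted p = 1.46e-05 in limma), it was 2.67 on slide 2 alone, and the change was called under all 23 alternatives. A further passing probe of Pfkp rose by 1.93 (adjusted p = 0.00144). The liver form Pfkl was more spread, at 11.38 and 10.04 with LPS/IFNg and 9.89, 8.49 and 10.36 in untreated cells, so that the groups overlapped and its difference of 1.13 was not called (adjusted p = 0.104). The muscle form Pfkm lay at 7.58 and 7.71 with LPS/IFNg, below the 7.99, 8.12 and 8.20 of untreated cells, and was not called either (-0.46, adjusted p = 0.0829).

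Hexokinases trap glucose in the cell by adding a phosphate. Hk3, a hexokinase prominent in myeloid cells, gave 13.67 and 13.68 on the LPS/IFNg arrays, 11.53, 12.17 and 11.52 with IL-4, 10.67, 11.47 and 11.60 with TGFb and 10.96, 12.28 and 11.05 in untreated cells. The LPS/IFNg arrays were nearly equal and above all others, while untreated replicate 2 was more than 1 unit above the other untreated arrays. Hk3 rose by 2.24 ± 0.41 (4.74-fold, adjusted p = 0.00135), and was called under all 23 alternatives. Hk1, the hexokinase of most tissues, was dim, at 6.16 and 4.57 with LPS/IFNg and 5.08, 5.06 and 5.81 in untreated cells. Its difference was 0.04.

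Tpi1, triose phosphate isomerase, interconverts the products of the aldolase step. It gave 13.40 and 12.25 on the LPS/IFNg arrays, 11.10, 11.53 and 11.17 with IL-4, 11.08, 11.35 and 11.16 with TGFb and 11.07, 11.28 and 11.37 in untreated cells. Replicate 1 of LPS/IFNg was the highest array and replicate 3 the next. The rise was 1.59 ± 0.29 (3.01-fold, adjusted p = 0.00141 in limma), with 1.02 on slide 2 alone, and the other passing probe rose by 1.23 (adjusted p = 0.00739). Pgk1, the phosphoglycerate kinase that yields the first ATP of the pathway, gave 12.44 and 12.25 on the LPS/IFNg arrays, 10.60, 11.55 and 11.33 with IL-4, 10.68, 10.93 and 10.84 with TGFb and 10.85, 11.11 and 11 in untreated cells. Here the LPS/IFNg arrays were close to each other and above all others, and the rise was 1.36 ± 0.25 (2.56-fold, adjusted p = 0.00145). Both genes were called under all 23 alternatives.

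Smaller rises were measured for Pgam1, Gapdh and Aldoa. Phosphoglycerate mutase, Pgam1, gave 9.84 and 9.52 with LPS/IFNg, 8.25, 9.01 and 8.86 with IL-4, 8.87, 8.93 and 9.01 with TGFb and 8.61, 8.57 and 9.08 in untreated cells. It rose by 0.93 ± 0.24 (adjusted p = 0.011 in limma, 0.0028 to 0.114 over the alternatives). Gapdh, the dehydrogenase that is often taken as a constant reference in expression studies, gave 13.61 and 13.09 with LPS/IFNg, 12.19, 12.43 and 12.46 with IL-4, 12.82, 12.85 and 12.64 with TGFb and 12.51, 12.43 and 12.95 in untreated cells. The LPS/IFNg arrays were above all others, and the rise was 0.72 ± 0.21 (1.65-fold, adjusted p = 0.0199, 0.00962 to 0.308 over the alternatives). The aldolase gene Aldoa gave 12.81 and 12.55 with LPS/IFNg, 11.15, 11.87 and 11.86 with IL-4, 11.90, 12.03 and 12.04 with TGFb and 12.16, 12.03 and 12.02 in untreated cells, and rose by 0.61 ± 0.22 (adjusted p = 0.0458, 0.00659 to 0.235 over the alternatives). With slide as a block Gapdh and Aldoa were not called (adjusted p = 0.0538 and 0.0632), and none of these 3 was called on slide 2 alone or without LPS/IFNg replicate 1. Gapdh and other glycolytic genes have many processed copies in the mouse genome, and how far their probes also bind those was not tested.

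The last steps of the pathway were not called. Pkm, pyruvate kinase, gave 14.15 and 13.38 with LPS/IFNg and 13.77, 13.77 and 13.64 in untreated cells, a difference of 0.04. Ldha, the lactate dehydrogenase subunit that is a classical HIF target, gave 13.23 and 12.01 with LPS/IFNg and 12.44, 11.79 and 12.52 in untreated cells. One LPS/IFNg array was above the untreated arrays and the other between them, and the difference of 0.37 was not called (adjusted p = 0.389). The brain aldolase Aldoc was close to background in every group, with detection on at most 1 array of a group and a difference of -0.61 (adjusted p = 0.185).

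Of the enzymes that set the pace, Pfkfb4 makes and removes the sugar phosphate that activates phosphofructokinase. It gave 9.93 and 9.58 with LPS/IFNg, 10.67, 10.52 and 10.58 with IL-4, 10.94, 10.17 and 9.86 with TGFb and 11.11, 10.18 and 10.88 in untreated cells. Both LPS/IFNg arrays lay below the untreated ones but overlapped the TGFb arrays, and the fall was -0.97 ± 0.33 (1.96-fold lower, adjusted p = 0.0366 in limma, 0.00903 to 0.2 over the alternatives). Pdk1, the kinase that keeps pyruvate out of the mitochondrion, gave 7.93 and 7.25 with LPS/IFNg and 7.46, 7.41 and 7.94 in untreated cells and did not pass the test (-0.01).

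**Figure D2:**
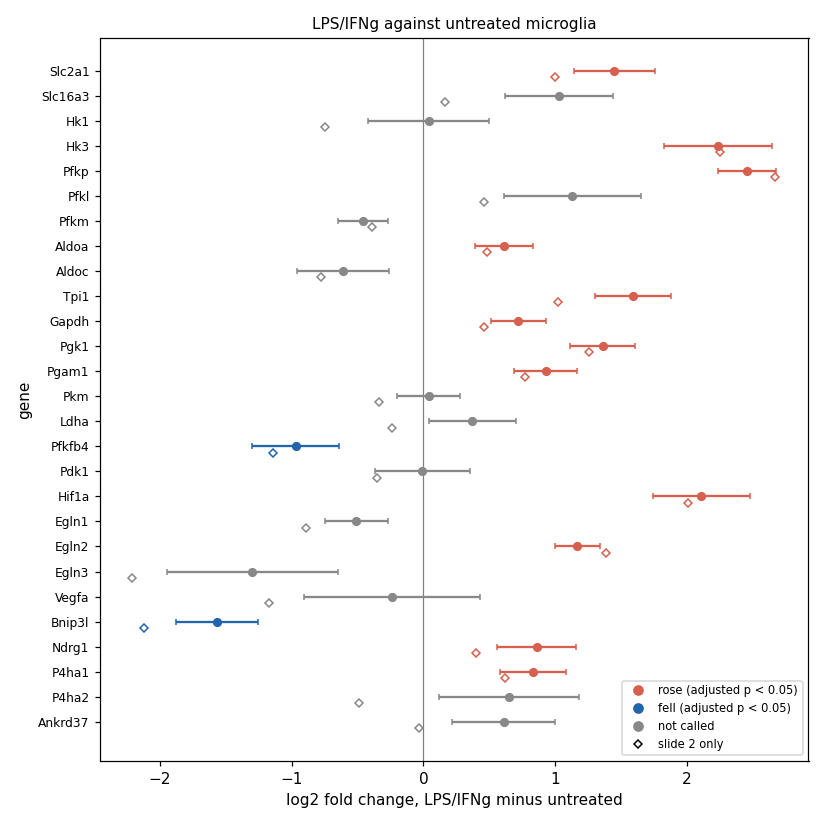
Log2 fold change of LPS/IFNg minus untreated cells (x axis) for the 27 tested genes (y axis). Filled points are the fit to all arrays with standard error bars, red for called rises, blue for called falls and grey for no call, and open diamonds are the arrays of slide 2 alone (1 LPS/IFNg against 3 untreated). Pfkp, Hk3 and Hif1a are farthest to the right, and Bnip3l is the called gene farthest to the left.

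Among the genes of oxygen sensing Hif1a, the oxygen-regulated subunit of HIF-1, gave 9.78 and 9.59 with LPS/IFNg, 7.66, 6.59 and 7.35 with IL-4, 8.07, 8.40 and 8.58 with TGFb and 7.84, 6.87 and 8.03 in untreated cells. Its LPS/IFNg arrays were above all others, and its TGFb arrays above the untreated ones. The rise with LPS/IFNg was 2.11 ± 0.37 (4.30-fold, adjusted p = 0.00114 in limma), was 2.01 on slide 2 alone, and was called under all 23 alternatives. These are levels of the mRNA. The HIF-1 alpha protein, whose stability the hydroxylases set, was not measured.

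Of the 3 prolyl hydroxylase genes 1 was called. Egln2 (PHD1) gave 7.33 and 7.77 with LPS/IFNg, 6.50, 6.63 and 6.57 with IL-4, 6.62, 6.87 and 6.62 with TGFb and 6.36, 6.28 and 6.51 in untreated cells, with both LPS/IFNg arrays above all others. It rose by 1.17 ± 0.17 (2.24-fold, adjusted p = 0.000389 in limma) and was called under all 23 alternatives. Egln1 (PHD2) was dim, at 5.38 and 4.62 with LPS/IFNg and 5.56, 5.44 and 5.51 in untreated cells, and Egln3 (PHD3) gave 7.23 and 5.39 with LPS/IFNg and 7.08, 7.17 and 8.57 in untreated cells. Neither was called, with differences of -0.51 (adjusted p = 0.116) and -1.30 (adjusted p = 0.137). The other passing probes of Egln1 differed by 0.32 and 0.14, so the probes of this gene did not share a direction. Without LPS/IFNg replicate 1, where 1 array with the spread of the other groups is left, both genes passed the threshold (Egln1 -0.89, adjusted p = 0.0241, with a value near background, and Egln3 -2.21, adjusted p = 0.0442). The adjusted p of Egln1 reached 0.736 and that of Egln3 0.732 over the alternatives.

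Of the 6 tested HIF targets 2 rose with LPS/IFNg and 1 fell. Bnip3l (NIX), a receptor that marks mitochondria for removal, gave 9.55 and 8.45 with LPS/IFNg, 10.20, 10.77 and 10.64 with IL-4, 10.78, 11.31 and 11.12 with TGFb and 10.77, 10.47 and 10.45 in untreated cells. Both LPS/IFNg arrays were below all others, and the fall was -1.57 ± 0.31 (2.96-fold lower, adjusted p = 0.00221 in limma), called under all 23 alternatives. It was the only member called lower against all 3 other groups.

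P4ha1, a subunit of the enzyme that hydroxylates collagen, gave 8.59 and 8.19 with LPS/IFNg, 7.34, 7.34 and 7.49 with IL-4, 7.74, 7.95 and 7.95 with TGFb and 7.23, 7.36 and 8.11 in untreated cells. It rose by 0.83 ± 0.25 (adjusted p = 0.022, 0.00194 to 0.297 over the alternatives), but another passing probe of the gene differed by 0.02 (adjusted p = 0.96). Ndrg1, a stress-induced gene, gave 6.93 and 6.02 with LPS/IFNg, 6.11, 5.66 and 5.71 with IL-4, 5.08, 4.91 and 5.69 with TGFb and 5.66, 5.40 and 5.80 in untreated cells. It rose by 0.86 ± 0.30 (adjusted p = 0.0444) and kept that call in 8 of 23 alternatives, and another passing probe differed by 0.28. Vegfa, the growth factor of blood vessels, overlapped between the groups, with 7.07 and 5.21 with LPS/IFNg and 5.89, 5.95 and 7.29 in untreated cells.

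The calls differed in how far they held. Tpi1, Pfkp, Pgk1, Hk3, Hif1a, Egln2 and Bnip3l were called with slide as a block, on slide 2 alone and with any array left out, which for LPS/IFNg rests in part on fits with 1 array as said above. These are 7 of 27 genes (25.9%), against 1824 of 8952 genes (20.4%) in the whole table, so that by this stricter measure the list lay close to the background. The other 7 calls were lost on slide 2 alone. Median scaling in place of quantile normalization gave a median over all genes of -0.25 in place of -0.07, and under it Pgam1, Ndrg1 and P4ha1 were no longer called. No called change of the list turned its sign under any alternative.

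The 2 arrays of LPS/IFNg differed from each other in these genes. Replicate 1 was above replicate 3 for 23 of the 27 genes, with a median of 0.76, and by at least 1 log2 unit for 10 of them (37%). Over all 8952 genes the median was 0.02, and 1.88% of genes were higher in replicate 1 by at least that much. None of the list was higher in replicate 3 by 1 unit, against 1.04% of all genes. Within the list the gap was wider in the 6 tested HIF targets than in enzymes. All 6 targets were higher in replicate 1, with a median of 1.19, whereas 10 of 13 enzymes were, with a median of 0.34. Of 25 tested HIF targets outside the main list most were higher in replicate 1 too, beside 52.1% of all genes. Mif (13.94 and 12.63) and Nos2 (9.99 and 8.69) had the widest gaps. Only Car9 (5.03 and 5.59), Ppp1r3c (5.13 and 5.40), Cxcr4 (4.54 and 4.75) and Wsb1 (11.23 and 11.58) were higher in replicate 3. Whether HIF targets as a class differ between these arrays more than other genes was not tested.

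P4ha2, like P4ha1, encodes a subunit of enzymes that hydroxylate collagen. It gave 7.97 and 5.70 with LPS/IFNg, 5.10, 4.98 and 4.92 with IL-4, 5.19, 5.18 and 6.14 with TGFb and 5.96, 6.31 and 6.28 in untreated cells. Replicate 1 of LPS/IFNg was thus the highest array, and replicate 3 was below the untreated cells. Ankrd37, an ankyrin-repeat gene induced by hypoxia, gave 6.82 and 5.53 with LPS/IFNg, 5.30, 4.58 and 4.83 with IL-4, 5.18, 4.81 and 5.31 with TGFb and 5.63, 5.03 and 6.04 in untreated cells. The gaps between replicate 1 and replicate 3 were 2.28 for P4ha2, 1.86 for Vegfa, 1.83 for Egln3, 1.76 for Slc16a3 and 1.59 for Hk1. Pfkp and Egln2 went the other way, by -0.44 each, and Hk3 (-0.01), Pgk1 (0.19), Hif1a (0.19) and Aldoa (0.26) were nearly level. Of the 7 calls that held throughout, Tpi1 (1.15) and Bnip3l (1.10) differed by more than 1 unit between the arrays and the other 5 by less.

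Replicate 1 was on slide 1 and replicate 3 on slide 2. Slide and replicate cannot be told apart within the LPS/IFNg group. Over the same genes the median of the slide 1 array minus replicate 3 was -0.06 and 0.01 for IL-4 replicates 1 and 2, and -0.08 and 0.06 for TGFb replicates 1 and 2. Of 9 usual reference genes 1, the actin gene Actb, was higher in LPS/IFNg replicate 1 by at least 1 unit, and their median gap was 0. Untreated arrays, all on slide 2, also differed. Replicate 3 was above replicate 2 for 20 of the 27 genes and by at least 1 unit for 5 (18.5%, against 3.68% of all genes), among them Pfkl (1.87), Egln3 (1.41), Vegfa (1.35) and Hif1a (1.16). The state of the cultures that gave these arrays is not recorded in the labels.

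**Figure D3:**
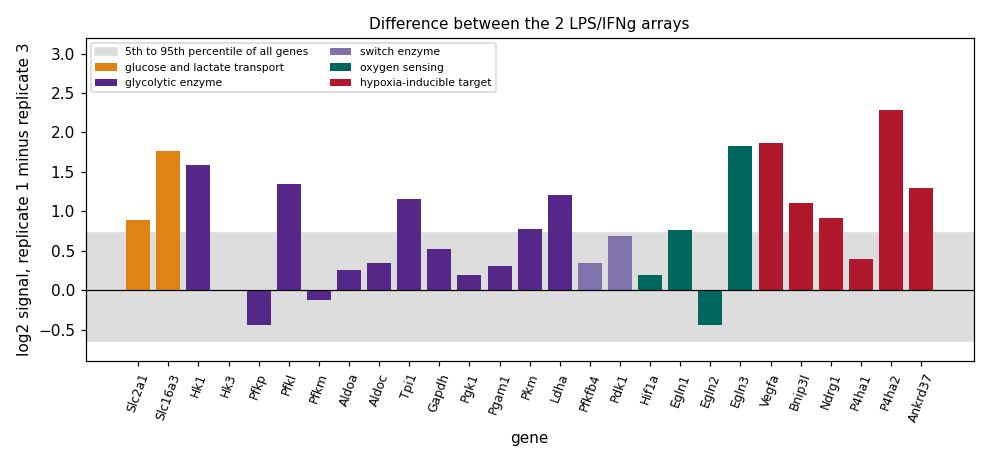
Log2 signal of LPS/IFNg replicate 1 minus replicate 3 (y axis) for the 27 tested genes (x axis), coloured by role. The grey band spans the 5th to the 95th percentile of all genes, -0.64 to 0.72. Of the HIF targets, P4ha2, Vegfa, Ankrd37, Bnip3l and Ndrg1 lie above the band, and P4ha1 lies inside it.

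With IL-4, 0 of the 27 genes were called against untreated cells by limma, beside 1.28% of all genes (0.86% higher, 0.424% lower). The count was 0 under every alternative run. The median of the list was -0.19, against 0.01 over all genes. The largest differences were in Egln3, at 4.59, 6.02 and 6.43 with IL-4 and 7.08, 7.17 and 8.57 in untreated cells (-1.93, adjusted p = 0.154), and in P4ha2 (-1.18, adjusted p = 0.282). The IL-4 arrays of both genes were below all untreated arrays, as were those of 6 of the 27 genes in all, while 18.5% of all genes had groups that did not overlap. The probe of Egln1 was detected on 0 of 3 IL-4 arrays and on 3 of 3 untreated arrays. Its difference of -0.59, near background, was not called (adjusted p = 0.236 in limma), and the other passing probes of Egln1 differed by -0.10 each. With the replicate number as a block, 184 genes in all were called in place of 115, and still 0 of the list.

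With TGFb, 0 of the 27 genes were called as well, beside 0.983% of all genes (0.614% higher, 0.369% lower). The count was again 0 under every alternative run. The median was -0.04, against 0.01 over all genes. Egln3 gave 9.29, 9.69 and 9.12 with TGFb and 7.08, 7.17 and 8.57 in untreated cells. All TGFb arrays were above all untreated arrays, and the difference of 1.76 was not called (adjusted p = 0.233). Hif1a (0.77, adjusted p = 0.423) and Slc2a1 (0.65, adjusted p = 0.412) also lay higher on each TGFb array than on any untreated one. In all 5 of the 27 genes had groups that did not overlap, beside 17.7% of all genes. A p above the threshold with 3 arrays a group does not show that the levels were equal.

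IL-4 and TGFb differed from each other in 2 of the 27 genes, beside 8.58% of all genes (3.92% higher and 4.66% lower with IL-4). Groups that did not overlap were found for 12 of the 27, beside 27.3% of all genes. Egln3 was at 4.59, 6.02 and 6.43 with IL-4 and 9.29, 9.69 and 9.12 with TGFb, so that the groups were far apart. It was lower with IL-4 (log2 fold change -3.69 ± 0.58, 12.9-fold lower, adjusted p = 0.00405 in limma), the largest difference of any member in any of the 6 comparisons. Slc2a1 was lower with IL-4 as well (-1.16 ± 0.28, 2.23-fold lower, adjusted p = 0.0281). Egln3 kept its call in 22 of 24 alternatives and Slc2a1 in 15 of 24, and neither was called on slide 1 alone or slide 2 alone, where each group has 2 arrays or 1. The median of the list was -0.23, against 0.02 over all genes. IL-4 replicate 1, the array with the high fibroblast markers, gave the lowest Egln3 value, and without it 3 genes of the list were called.

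LPS/IFNg was also set against each other stimulus, with the same 2 LPS/IFNg arrays. Against IL-4 13 of the 27 genes were higher and 1 lower (background 40%, with 16.4% higher and 23.5% lower), with a median of 0.98 (0.63 on slide 2 alone), against -0.10 over all genes, and 18 of the 27 did not overlap, beside 61% of all genes. Against TGFb 11 were higher and 2 lower (background 42%, with 17.8% higher and 24.2% lower), with a median of 0.60 (0.23 on slide 2 alone), against -0.07 over all genes, and 17 of the 27 did not overlap, beside 64.8% of all genes. Of the list 9 genes (33.3%) were called higher with LPS/IFNg against each of the 3 other groups, where 12.4% of all genes were. They were Hk3, Pfkp, Aldoa, Tpi1, Gapdh, Pgk1, Pgam1, Hif1a and Egln2, of which 7 are enzymes of glycolysis. By the stricter measure of a call with slide as a block, on slide 2 alone and with any array left out, 3 of 27 held against IL-4 (11.1%, beside 13.7% of all genes: Pfkp, Bnip3l and Egln2) and 5 against TGFb (18.5%, beside 17.7%: Pfkp, Egln3, Pgk1, Bnip3l and Egln2). Since the 3 comparisons share the LPS/IFNg arrays, they are no independent support for each other.

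P4ha2, Ankrd37 and Egln3 were called only where IL-4 or TGFb served as the comparison. P4ha2 (1.83 ± 0.53, adjusted p = 0.0181 in limma) and Ankrd37 (1.27 ± 0.39, adjusted p = 0.0254) were higher with LPS/IFNg than with IL-4, and neither kept that call without LPS/IFNg replicate 1 (P4ha2 0.70, adjusted p = 0.178, and Ankrd37 0.63, adjusted p = 0.271). Their adjusted p lay between 0.000403 and 0.178 for P4ha2 and between 0.007 and 0.386 for Ankrd37 over the alternatives. Egln3 was lower with LPS/IFNg than with TGFb (-3.06 ± 0.65, 8.32-fold lower, adjusted p = 0.00322), and this was called in 23 of 24 alternatives. Ankrd37 was higher than with TGFb by 1.08 ± 0.39 (adjusted p = 0.0474) and Ndrg1 by 1.25 ± 0.30 (adjusted p = 0.00699). Of these, Ankrd37 kept the call in 8 of 24 alternatives. Whether the members differ between comparisons was not tested.

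**Figure D4:**
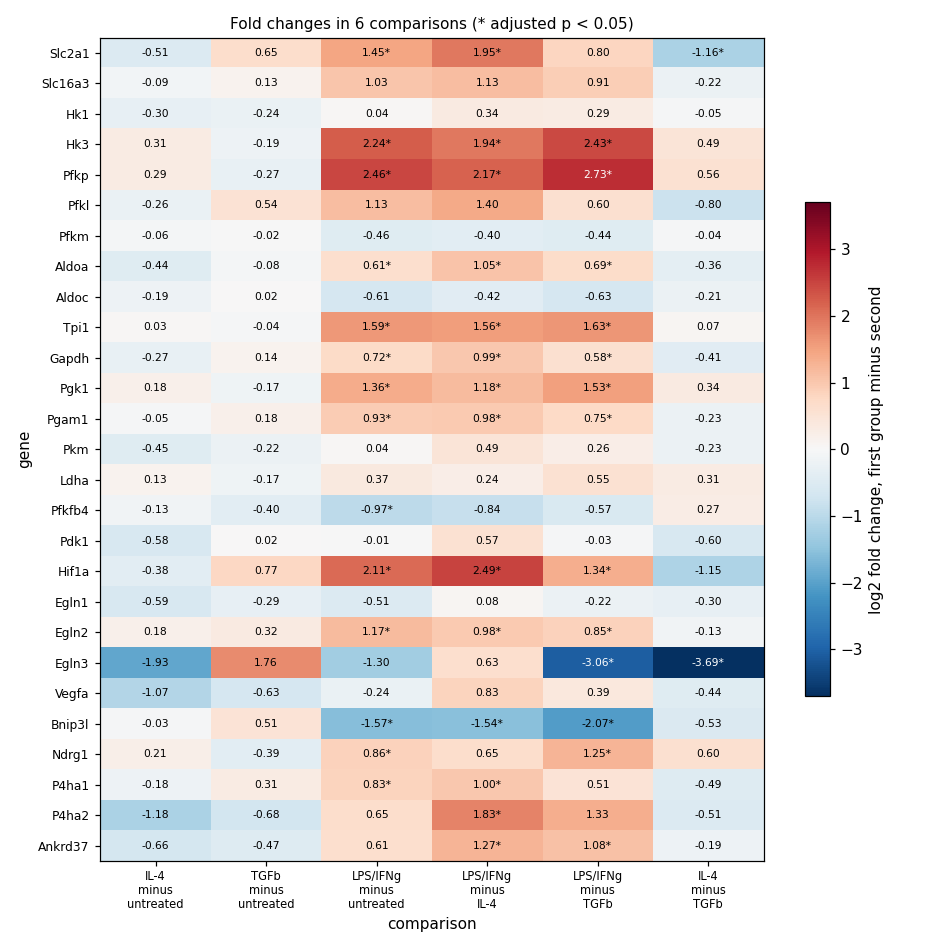
Log2 fold change (colour and printed value, first group minus second) of the 27 tested genes (rows) in the 6 comparisons (columns). An asterisk marks an adjusted p below 0.05. The columns of IL-4 and TGFb against untreated cells hold no asterisk, and the 3 columns that start with LPS/IFNg hold 14, 14 and 13.

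Further genes of these pathways, from a list of 98 of which 61 were tested, were called in both directions. With LPS/IFNg 11 rose (18%, beside 17.5% of all genes) and 11 fell, with a median of 0.02, and with slide as a block 9 rose and 10 fell. In all 36.1% were called, beside 41% of all genes, so these counts lie near the background. Among the risers were Slc2a6, a glucose transporter of leukocytes (4.05 ± 0.56, adjusted p = 0.000246 in limma), Gpd2, the mitochondrial glycerol phosphate dehydrogenase (2.39 ± 0.39, adjusted p = 0.00071), and Pdp1, a phosphatase that switches pyruvate dehydrogenase on (1.51 ± 0.28, adjusted p = 0.00155). A probe that no array of the lower group detected gives only a bound there. On each such array the bound is the probe's value or, where larger, that of the dimmest detected probe. By that bound Edn1, the vasoconstrictor endothelin, was at least 21.9-fold higher (adjusted p = 1.45e-07), Nos2, the inducible nitric oxide synthase, at least 19.3-fold higher (adjusted p = 1.14e-06) and Ak4, a mitochondrial adenylate kinase, at least 2.89-fold higher (adjusted p = 4.8e-05).

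Among the fallers Cxcr4, a chemokine receptor, was at least 14.2-fold lower with LPS/IFNg (adjusted p = 1.55e-07 in limma) and Angptl4, an inhibitor of lipoprotein lipase, at least 7.93-fold lower (adjusted p = 0.00175). The transporter gene Slc2a8 was at least 4.66-fold lower, Mxi1, a repressor related to Myc partners, at least 2.25-fold lower and the nuclear receptor Rora at least 1.74-fold lower. Pygl, the glycogen phosphorylase of liver, fell by 1.70 ± 0.38 (adjusted p = 0.00493). Genes classed as HIF targets outside the main list were split, with 4 of 25 rising (16%) and 4 falling, a share called of 32%. Of 5 tested genes of the pentose phosphate pathway none rose and 2 fell, Taldo1 (-1.59, adjusted p = 0.0158) and Pgls (-1.19, adjusted p = 0.000767), and of 12 HIF regulators Cul2 and Eloc, parts of the ligase that removes HIF-1 alpha, rose (1.00 and 0.69). The shares called were 40% of the pentose phosphate genes and 16.7% of the regulators. Set beside 17.5% of all genes higher and 23.5% lower, and with so few genes, these counts are values of the named genes and not results about the groups.

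With IL-4, 2 of these 61 genes rose and 1 fell. They were Tfrc, the transferrin receptor (2.02 ± 0.27, adjusted p = 0.00705 in limma), Ppp1r3c, a glycogen-targeting subunit (1.42 ± 0.24, adjusted p = 0.0214), and Cxcr4 (-0.91 ± 0.18, adjusted p = 0.046). With slide as a block 1 rose and none fell. With TGFb, Cxcr4 alone rose (1.19 ± 0.18, adjusted p = 0.0185), and with slide as a block its adjusted p was 0.063. Of 14 usual reference genes, measured beside Gapdh, 9 were tested. With LPS/IFNg Tubb5 rose (0.80, adjusted p = 0.0472), Gusb (-2.04, adjusted p = 8.31e-06) and Rpl13a (-0.57, adjusted p = 0.0386) fell, which with slide as a block held for Gusb but not for Tubb5 (adjusted p = 0.0809) or Rpl13a (adjusted p = 0.0973), and Actb differed by 0.23 without passing the test.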

How the data were processed

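Labelled cRNA of cultured microglia was hybridised to 11 Illumina BeadChips on 2 slides. Per the file headers, the scanner table that was deposited holds for each of 45281 probes the intensity (a mean over beads that was not normalized between arrays) and a detection p-value. The authors' value table holds log2 values, which matched quantile-normalized log2 signals moved per probe by slide to within 0.00978, and was used as an alternative. Its values had a median of 6.95 on each array. Partek is named in the submitters' processing notes, and other steps were not given in the sources used here.

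Intensities were processed under R 4.3.3 by the neqc function of limma 3.58.1 (background from detection p-values, offset 16, quantile normalization, log2). Of the probes 34885 had 1 gene symbol, 18 several and 10378 none. After the filter 15937 probes and 8952 genes were left, each gene by its passing probe with the highest mean. The model had 7 residual and 3.52 prior degrees of freedom and was tested on simulated data. The number of arrays limits the precision.

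The members and the other gene lists were chosen with earlier results of these data known. Named were all tested members, with values per array for those called in at least 1 comparison, and of the other lists called genes only, up to 6 in each direction against untreated cells by size. Pgls, Taldo1, Cul2, Eloc and the reference genes fall outside that limit of 6 and were chosen after their values were seen. The other HIF targets named for the gap between the LPS/IFNg arrays were chosen by that gap, called or not. Alternatives were no background correction, median scaling, the authors' table, other detection filters, every probe, slide as a fixed or random block, 1 slide only, a replicate block, 2 groups only, robust eBayes and leaving out each array. Arrays of IL-4 and untreated cells with the same replicate number deviated together (correlations of 0.40, 0.44 and 0.26). So did those of TGFb and LPS/IFNg (0.23 and 0.37). This is a hint from the data, since the labels give no shared litter, batch or day. Counts from the fit with the replicate number as a block are given for both comparisons.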

Additional observations from a re-analysis of the deposited data

How the results depend on the processing

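Calls of members are counts among 27 genes. Against untreated cells, IL-4 and TGFb gave 0 under every alternative run, the replicate block included. LPS/IFNg against untreated cells gave 14, with 9 on slide 2 only and 9 to 17 when 1 array was left out. LPS/IFNg against IL-4 gave 14, with 3 on slide 2 only, 8 on slide 1 only and 9 to 18 with 1 array left out. LPS/IFNg against TGFb gave 13, with 5 on slide 2 only, 7 on slide 1 only and 7 to 14 with 1 array left out, where 7 came without LPS/IFNg replicate 1. IL-4 against TGFb gave 2, with 1 under median scaling, 1 with no detection filter, 0 on slide 2 only, 0 on slide 1 only, 4 with the replicate block and 1 to 3 with 1 array left out. The lower counts on 1 slide come with fewer arrays (1 LPS/IFNg array on each), and the cause of the others was not tested. No called value changed sign.

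Of 15 pairs of arrays with the same replicate number, 10 deviated from their group means with a correlation above 0.1, over a range of -0.16 to 0.49. Every pair was above 0.1 for IL-4 with untreated cells and for TGFb with LPS/IFNg (0.23 and 0.37), but not for the other comparisons. The main fit does not pair the samples by number, and counts with the replicate block are given beside it. With the replicate block, members called were 14 for LPS/IFNg against untreated cells, 15 against IL-4 and 12 against TGFb. Over all genes, IL-4 against untreated cells gave 115 calls, with 29 under slide as a block, 3 on slide 2 only, 18 in a fit of the 2 groups alone, 184 with the replicate block and 406 from the authors' table. TGFb gave 88, with 9 under slide as a block, 0 on slide 2 only, 40 in a fit of the 2 groups alone, 56 with no detection filter, 148 with the replicate block and 289 from the authors' table. For LPS/IFNg the counts were 3674 against untreated cells and 2270 on slide 2 only, 3577 against IL-4 with 1502 on slide 2 only and 834 on slide 1 only, and 3756 against TGFb with 1761 on slide 2 only and 1276 on slide 1 only. IL-4 against TGFb gave 768, with 3 on slide 2 only, 27 on slide 1 only and 478 in a fit of the 2 groups alone. Probes near background, such as those of Slc16a3, Aldoc and Egln1, limit what could be called.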
